A study of Mus musculus with 12 samples.

Results

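Egr1, Egr2, Egr3 and Egr4, Nr4a1, Nr4a2 and Nr4a3, Arc and Npas4 are genes that neurons switch on soon after they have been active. The 9 genes were taken by symbol from the deposited gene table, and all 9 were found among its 78298 genes and were also among the 18600 genes that passed the count filter. They were followed through 12 poly(A) RNA libraries from the hippocampus of male C57BL/6 mice, bought at 6 to 8 weeks of age, with 4 libraries in each of 3 groups. Treatment mice were exposed to chronic unpredictable mild stress, in which a different mild stressor each day serves to model depression, for 28 days. From day 15 they were also dosed for 14 days with poricoic acid A (20 mg/kg, once a day by gavage), a triterpenoid made by Poria cocos, a fungus. Model mice went through the same 28 days of stress and received saline. Control mice had saline and no stress. No group received the compound without stress, and the time between the last stressor or gavage and the dissection, which matters for genes of this kind, is not given in the sources used here. All libraries carry the label of 1 batch. The labels give 4 mice per group and do not state whether every library comes from its own animal. The p-values describe the spread between libraries.

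Calcium entry during firing activates kinases that phosphorylate transcription factors such as CREB and the partners of SRF, which are already bound near these genes, so that their transcription needs no new protein. The Egr proteins are zinc-finger transcription factors that bind GC-rich sites, and the Nr4a proteins are orphan nuclear receptors. Npas4 is a transcription factor found mainly in neurons and is induced by calcium entry, and Arc is not a transcription factor but a protein of dendrites that takes part in removing AMPA receptors from synapses. In the hippocampus the family is widely used to mark recently active neurons and is studied for its part in memory.

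CREB binds the letters TGACG, the core of the cyclic AMP response element, and SRF binds the CArG box. RefSeq promoter entries (assembly GRCm38.p6, earlier than the GRCm39 build of the study's files) were matched by symbol for 6 of the 9 genes, Nr4a1, Nr4a2, Nr4a3, Egr2, Egr4 and Npas4, in 10 windows of 250 bases before a start site, 5 of them for alternative starts of Egr2. No window was matched for Egr3 or Arc, and the chromosome that carries Egr1 was left out of the search. The promoters of Egr1, Egr3 and Arc were therefore not examined. The absence of a match does not show that these genes lack an entry. TGACG on either strand lay in the single window of each matched gene but Egr2 and in 3 of the 5 Egr2 windows, against 17.8% of all 32851 promoter windows. The CArG box lay in 4 of the 5 Egr2 windows, against 1.47% of all. Of those 4 windows, 3 overlap each other and share 1 box, so the 4 hold 2 separate boxes. The 3 overlapping windows are also the Egr2 windows with TGACG and share its matches. The complete element TGACGTCA was in none of the 10 windows and in 1.55% of all. All 5 windows free of annotated exons are shown 5′ to 3′ on the strand of the gene, so that the letters can be compared between the genes. Capitals mark TGACG or its reverse complement CGTCA and, in Egr2, also the CArG box. The windows are chr15:101266596-101266845 on the plus strand for Nr4a1, chr2:57124004-57124253 on the minus strand for Nr4a2, chr6:85513590-85513839 on the minus strand for Egr4 and chr10:67537619-67537868 and chr10:67537316-67537565 on the plus strand for Egr2, of which the second lies before another start.
Nr4a1: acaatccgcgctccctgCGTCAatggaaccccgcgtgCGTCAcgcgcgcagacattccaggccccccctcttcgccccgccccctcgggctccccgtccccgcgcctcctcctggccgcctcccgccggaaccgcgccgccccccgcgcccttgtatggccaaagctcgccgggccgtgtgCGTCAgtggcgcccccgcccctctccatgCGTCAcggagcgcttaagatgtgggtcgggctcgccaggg
Nr4a2: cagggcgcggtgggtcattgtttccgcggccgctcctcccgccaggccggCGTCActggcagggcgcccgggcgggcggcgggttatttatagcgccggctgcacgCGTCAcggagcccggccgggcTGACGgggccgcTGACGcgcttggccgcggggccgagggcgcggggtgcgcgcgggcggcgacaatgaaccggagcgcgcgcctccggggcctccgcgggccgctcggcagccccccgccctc
Egr4: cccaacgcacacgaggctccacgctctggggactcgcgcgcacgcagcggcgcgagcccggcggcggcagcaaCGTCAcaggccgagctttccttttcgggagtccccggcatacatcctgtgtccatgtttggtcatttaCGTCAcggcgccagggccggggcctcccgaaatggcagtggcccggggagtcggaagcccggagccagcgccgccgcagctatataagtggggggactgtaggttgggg
Egr2: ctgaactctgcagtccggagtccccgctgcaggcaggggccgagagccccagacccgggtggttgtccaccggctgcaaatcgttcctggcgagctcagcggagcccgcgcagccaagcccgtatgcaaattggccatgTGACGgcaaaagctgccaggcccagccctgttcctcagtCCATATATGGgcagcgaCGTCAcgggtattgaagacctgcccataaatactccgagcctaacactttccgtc
Egr2 (other start): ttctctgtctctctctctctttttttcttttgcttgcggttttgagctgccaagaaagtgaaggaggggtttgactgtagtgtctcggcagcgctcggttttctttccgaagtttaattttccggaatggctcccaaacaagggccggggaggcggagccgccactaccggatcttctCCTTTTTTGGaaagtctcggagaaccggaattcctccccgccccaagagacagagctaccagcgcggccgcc
The Nr4a1 and Nr4a2 windows each held 4 matches to TGACG, the Egr4 window and the first Egr2 window each held 2, and the other Egr2 window held 0. The letters GCGNGGGCG, which Egr proteins bind, were found once each in the Nr4a1 and Nr4a2 windows and in 4.70% of all windows. These matches are letters in the sequence, and binding was not measured.

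The libraries held between 17083260 and 27479083 estimated counts, and the biological coefficient of variation between libraries of a group was 10.7%. Markers that define hippocampal cells were present in every library, such as Prox1 of dentate granule cells at 98.2 to 175 CPM (counts scaled by library size) and Wfs1 of CA1 pyramidal cells at 103 to 178 CPM. Sums of some marker lists separated groups. The 12 neocortical layer markers summed to 503 to 624 CPM in Treatment, 407 to 481 CPM in Model and 371 to 484 CPM in Control, and none of them was at 0. By edgeR 3 of 12 passed as higher in Treatment than in Model, where 1.88% of all genes passed. The 14 choroid plexus markers summed to 493 to 1527 CPM in Treatment, 630 to 914 CPM in Model and 754 to 2474 CPM in Control, where replicate 4 had 754 CPM and the others 1847 to 2474 CPM, and none was at 0. In Treatment the sums were 493, 1527, 1153 and 525 CPM in order of replicate. Of the 14, edgeR called 1 as lower in Model than in Control (0.790% of all genes called) and 0 in the comparisons with Treatment. Few calls do not mean small differences here. Against Control, 0 of the 14 had a positive difference in Model (median -1.26 log2 units) and 0 in Treatment (median -1.06). Between Treatment and Model 11 were positive (median 0.14). The 12 dentate granule cell markers summed to 655 to 724 CPM in Treatment, 833 to 989 CPM in Model and 738 to 864 CPM in Control. Of these 12, edgeR called 5 as lower in Treatment than in Model and 1 as higher in Model than in Control. The 10 endothelial markers summed to 232 to 290 CPM in Treatment, 200 to 216 CPM in Model and 195 to 222 CPM in Control, and edgeR called 2 as higher in Treatment than in Model. Of the 8 striatal and the 8 thalamic and habenular markers edgeR called 0 in each comparison, and their sums overlapped between all groups. Control replicate 1 stood apart, with a thalamic and habenular sum of 443 CPM, where every other library had 154 to 248 CPM.

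Levels can be compared between genes per transcript length, as deposited FPKM, which divides by transcript length and library total. Egr3 had the highest mean FPKM of the 9 genes in each group, at 47.2 ± 5.01 in Treatment, 42.2 ± 3.38 in Model and 30.1 ± 1.14 in Control (SD, n = 4 each), and its lowest library lay above the highest library of every other member in the same group. Arc, Egr1, Nr4a1 and Nr4a2 followed at mean FPKM values of 17.0 to 23.8 over the groups, and neighbours in that order overlapped in FPKM, except Arc and Egr1 in Control. Nr4a3 came next at a mean of 13.3 FPKM in Treatment, 15.0 FPKM in Model and 12.9 FPKM in Control, and it overlapped the gene above it in Model and Control but not in Treatment. Egr4 had a mean of 9.54 FPKM in Treatment, 8.45 FPKM in Model and 8.10 FPKM in Control, and Npas4 had a mean of 4.48 FPKM in Treatment, 2.76 FPKM in Model and 3.75 FPKM in Control. In every group the FPKM values of Egr4 and Npas4 overlapped neither each other nor those of their neighbours in the order. Egr2 was last, with 12 to 26 estimated counts per library. Its FPKM is unreliable, because the length implied by counts and FPKM ran from 0.416 to 2.72 kb between libraries, and a Model library with 13 counts was given 1.43 FPKM.

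**Figure D1:**
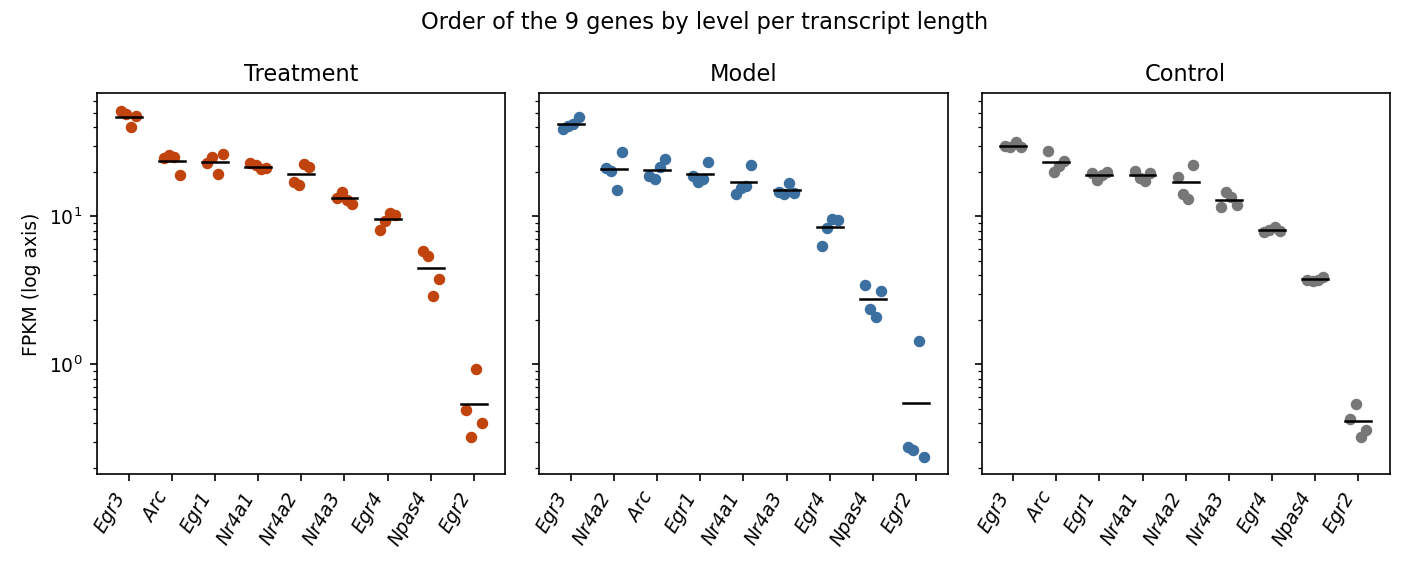
FPKM (log axis) of the 9 genes in each library, ordered by group mean from left to right, in Treatment, Model and Control; points are libraries and lines are means of 4. Egr3 stands first in all 3 panels with means of 47.2, 42.2 and 30.1 FPKM, a middle group of 4 genes overlaps, and Egr2 stands last.

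Among the Egr factors, Egr3 was higher in both stressed groups than in Control. This gene encodes a zinc-finger factor that is required for muscle spindle development in mice and is induced by activity in the brain, and it lies at chr14:70314652-70317404 (GRCm39). It had 163, 138, 127 and 147 CPM in Treatment, 109, 128, 131 and 152 CPM in Model and 88.0, 94.6, 92.9 and 92.8 CPM in Control. All 8 libraries of stressed mice lay above all 4 Control libraries, whereas Treatment and Model overlapped. In a bulk sample, more RNA per cell and more cells that express a gene cannot be told apart. Egr3 rose by 0.50 ± 0.09 log2 units in Model over Control (41.1% higher, SE, n = 4 each, adjusted p = 0.0212, edgeR) and was 0.64 ± 0.09 higher in Treatment than in Control (56.3% higher, adjusted p = 0.0168, edgeR). These comparisons share the Control libraries. Treatment exceeded Model by 0.15 ± 0.09, with a 95% interval of -0.04 to 0.34 (adjusted p = 0.405, edgeR).

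The Egr3 call was lost without some single libraries. In Model against Control, leaving out Control replicate 1, Control replicate 2, Model replicate 2, Model replicate 3 or Model replicate 4 gave 0.41 to 0.52 log2 units with edgeR adjusted p-values of 0.0616 to 0.0931. In Treatment against Control, leaving out Control replicate 1 gave an adjusted p of 0.0675 and leaving out Control replicate 3 gave 0.0916, with edgeR. With the choroid plexus score in the edgeR model, the difference was 0.42 in Model against Control (adjusted p = 0.280) and 0.57 in Treatment against Control (adjusted p = 0.340). With the neocortical score it was 0.50 in Model against Control (adjusted p = 0.0241) and 0.58 in Treatment against Control (adjusted p = 0.655), again with edgeR. The neocortical sums of Treatment and Control did not overlap, so in that comparison the neocortical score and the group cannot be told apart. Of the Control libraries, only replicate 4 had a choroid plexus sum within the ranges of Model and Treatment. The choroid plexus score and the group are therefore hard to tell apart in comparisons with Control.

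Egr1, the best studied factor of the family and a gene needed for lasting memory in mice, did not pass in any comparison. This gene lies at chr18:34992876-34998037 (GRCm39). It had 97.4, 104, 80.5 and 113 CPM in Treatment, 79.2, 71.9, 76.9 and 98.9 CPM in Model and 81.8, 74.2, 79.5 and 84.2 CPM in Control. Treatment replicate 3 lay among the libraries of the other groups, and Model replicate 4 lay above all Control libraries. The difference was 0.27 ± 0.10 log2 units in Treatment over Model (adjusted p = 0.166, edgeR), 0.31 ± 0.10 in Treatment over Control (adjusted p = 0.197) and 0.03 ± 0.10 in Model over Control (adjusted p = 0.916).

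Egr2, which directs myelination in Schwann cells and is also induced in neurons, and Egr4, the least studied factor of the family, are present at lower levels. Egr2 (chr10:67371305-67376076, GRCm39) had 1.33, 0.862, 1.01 and 1.08 CPM in Treatment, against 0.756, 0.716, 0.606 and 0.644 CPM in Model, and the groups did not overlap. With so few reads the 95% interval of the difference ran from 0.06 to 1.24 log2 units, and the estimate of 0.65 ± 0.28 did not pass (adjusted p = 0.221, edgeR). Control libraries had 0.491 to 0.905 CPM and overlapped both other groups. Egr4 (chr6:85488103-85490571, GRCm39) had 15.1 to 19.8 CPM in Treatment, 12.1 to 18.2 CPM in Model and 14.7 to 15.9 CPM in Control. Its log2 differences were 0.16 ± 0.12 in Treatment against Model, 0.23 ± 0.12 in Treatment against Control and 0.07 ± 0.12 in Model against Control, with edgeR adjusted p-values of 0.513, 0.391 and 0.819.

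**Figure D2:**
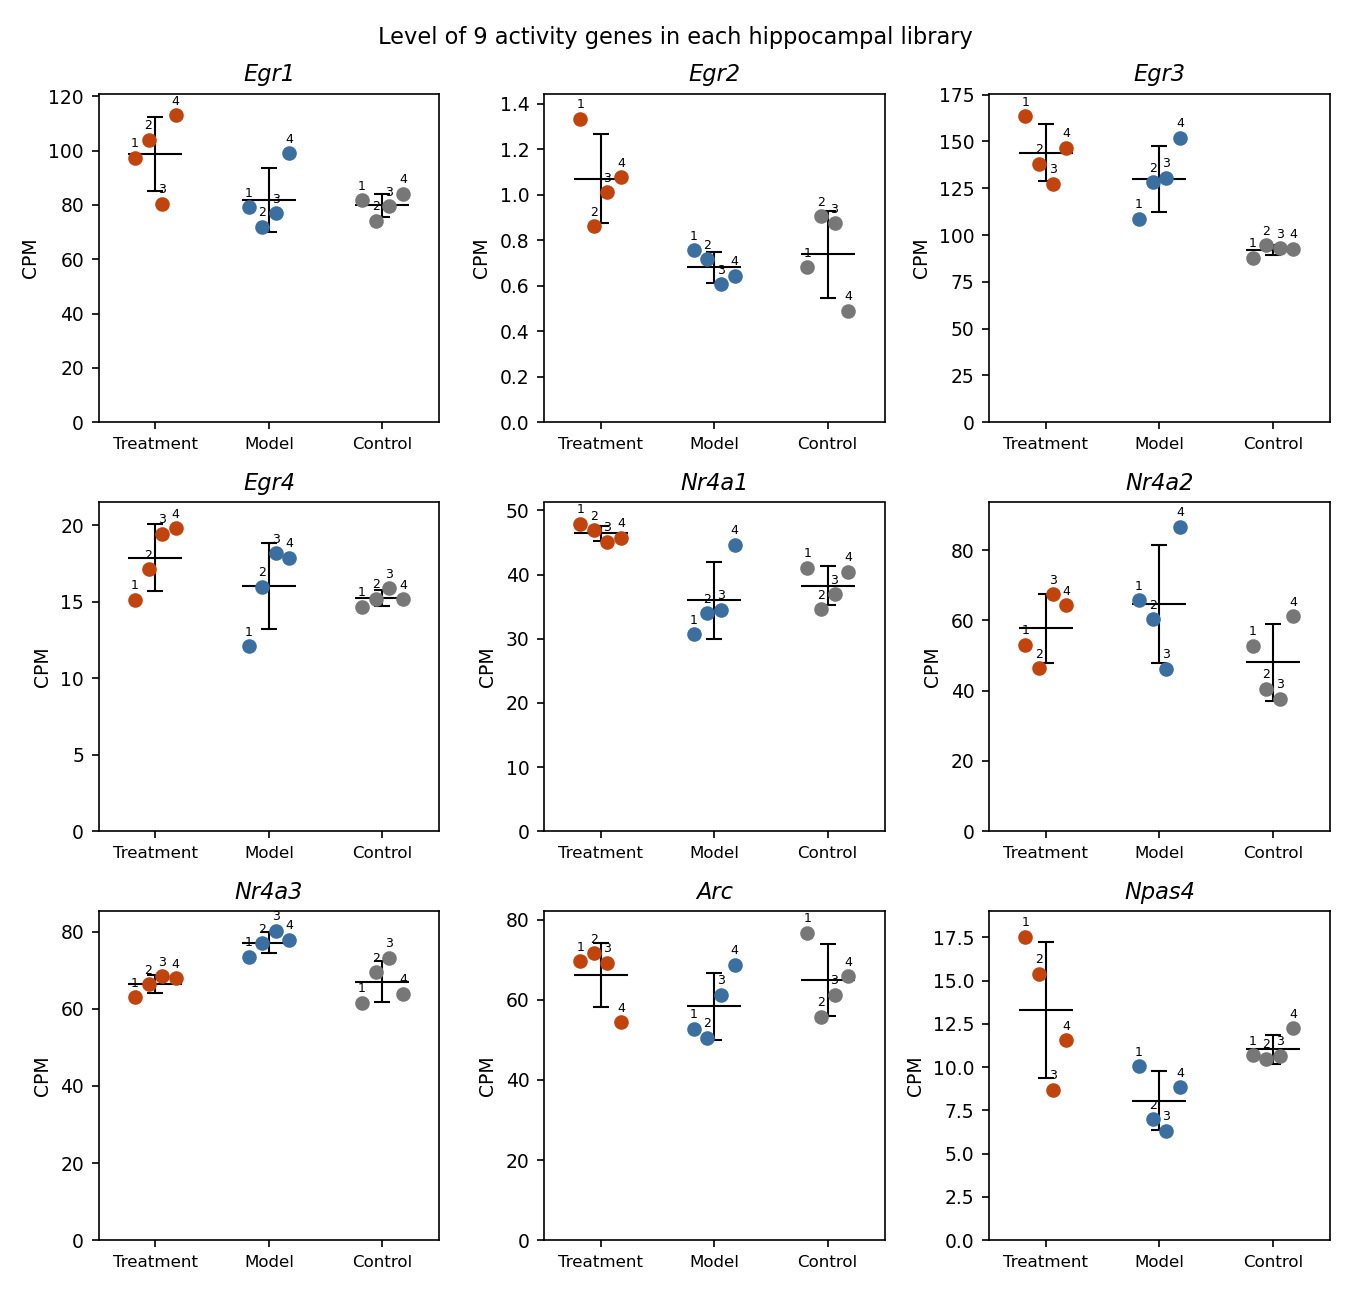
Library-scaled level (CPM, axes from 0) of each gene in the Treatment, Model and Control libraries; numbers are replicate numbers, long bars are means and whiskers are SD (n = 4). All Treatment and Model libraries lie above Control for Egr3, Nr4a1 is highest in all 4 Treatment libraries, and Nr4a3 is highest in all 4 Model libraries.

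None of the 3 Nr4a receptors passed the edgeR test in any comparison. Nr4a1 (also called Nur77; chr15:101152150-101172676, GRCm39), a receptor without a known natural ligand that is induced in many cell types, had 47.9, 46.9, 45.1 and 45.7 CPM in Treatment, 30.7, 34.0, 34.5 and 44.6 CPM in Model and 41.1, 34.6, 36.9 and 40.4 CPM in Control. In CPM all 4 Treatment libraries lay above the other 8, and Model replicate 4 stood near them. In FPKM the groups overlapped, since Model replicate 4 had 22.4 FPKM and Treatment replicates 2, 3 and 4 had 22.1, 20.7 and 21.2 FPKM. The difference of Treatment over Model was 0.37 ± 0.09 log2 units (28.9% higher) and just missed the threshold (adjusted p = 0.0585, edgeR). Without Model replicate 4 it was 0.49 and passed (adjusted p = 0.0264, edgeR), and without the other libraries in turn the adjusted p was 0.0713 to 0.183. Treatment exceeded Control by 0.28 ± 0.09 (adjusted p = 0.202, edgeR), and Model differed from Control by -0.09 ± 0.10 (adjusted p = 0.719, edgeR). In the annotation of the files 3 other genes overlap Nr4a1, with 8.28% of its count between them. Whether counting used the strand of reads is not given in the sources used here.

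Nr4a3 (Nor1; chr4:48045153-48086445, GRCm39), the third receptor of the family, had 63.0, 66.4, 68.4 and 67.9 CPM in Treatment, 73.5, 77.0, 80.2 and 78.0 CPM in Model and 61.6, 69.5, 73.3 and 63.9 CPM in Control. Every Model library exceeded every other library in CPM, and Treatment and Control overlapped. In FPKM all 3 groups overlapped, with a lowest Model library of 14.2 FPKM and a highest library of 14.6 FPKM in both Treatment and Control. The differences were small, -0.22 ± 0.06 log2 units in Treatment against Model (adjusted p = 0.0808, edgeR) and 0.20 ± 0.06 in Model against Control (adjusted p = 0.129, edgeR), and neither passed. Treatment against Control was -0.01 ± 0.06, with a 95% interval of -0.14 to 0.12 (adjusted p = 0.959, edgeR). The summed dentate granule cell markers given above were also higher in every Model library than in every Treatment library, and their part in the Nr4a3 values was not tested.

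Nr4a2 (Nurr1; chr2:56996842-57005050, GRCm39), a receptor that dopamine neurons of the midbrain need in order to develop, had a wide spread within groups. It had 53.1, 46.4, 67.4 and 64.4 CPM in Treatment, 65.8, 60.3, 46.2 and 86.7 CPM in Model and 52.8, 40.6, 37.7 and 61.3 CPM in Control. All 3 groups overlapped. Its SD within groups was 0.32 on the log2 scale, as was that of Npas4, against 0.15 for Nr4a1 and 0.08 for Nr4a3. The difference of Model over Control was 0.43 ± 0.18 (adjusted p = 0.256, edgeR), and without Model replicate 4 it was 0.25 (adjusted p = 0.583, edgeR). Treatment against Model was -0.16 ± 0.18 and Treatment against Control 0.26 ± 0.18, with edgeR adjusted p-values of 0.686 and 0.555.

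Npas4 (chr19:5034383-5039999, GRCm39), whose protein shapes inhibitory synapses onto excitatory neurons in the mouse hippocampus, had the widest range of the members in Treatment, where its highest library was 2.02 times its lowest. It had 17.5, 15.4, 8.69 and 11.5 CPM in Treatment, 10.1, 7.00, 6.34 and 8.84 CPM in Model and 10.7, 10.5, 10.6 and 12.3 CPM in Control. All Model libraries lay below all Control libraries, and Treatment replicate 3 lay within the Model range. The difference of Treatment over Model was 0.72 ± 0.19 log2 units (64.3% higher) and missed the threshold (adjusted p = 0.0588, edgeR). Without Treatment replicate 3 it was 0.87 (adjusted p = 0.0166, edgeR), without Model replicate 1 it was 0.83 (adjusted p = 0.0484), and without each of the other libraries the adjusted p was 0.0738 to 0.185. Model against Control was -0.45 ± 0.19 (adjusted p = 0.256, edgeR) and Treatment against Control 0.27 ± 0.18 (adjusted p = 0.556, edgeR).

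Arc (chr15:74540932-74544417, GRCm39), the synaptic effector, did not separate the groups. It had 69.5, 71.6, 69.2 and 54.3 CPM in Treatment, 52.8, 50.5, 61.2 and 68.7 CPM in Model and 76.8, 55.7, 61.2 and 65.9 CPM in Control. The highest of these values belonged to a Control library and the lowest to a Model library. The differences were 0.18 ± 0.11 log2 units in Treatment against Model, 0.03 ± 0.11 in Treatment against Control and -0.15 ± 0.11 in Model against Control, with edgeR adjusted p-values of 0.426, 0.950 and 0.570. The intervals show what this design could not separate, since that of Treatment against Model ran from -0.06 to 0.42.

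Counted over the 9 genes, 0 passed between Treatment and Model, where 1.88% of all genes passed (edgeR); 5 of the 9 had an unadjusted p under 0.05, as had 18.5% of all genes, and DESeq2 called 3 (Nr4a1, Nr4a3 and Npas4), against 5.91% of all genes. Between Treatment and Control 1 of 9 passed, against 0.102% of all genes, and between Model and Control 1 of 9 passed, against 0.790% of all genes. In both cases the gene was Egr3, so the count stands for a single gene. DESeq2 called 1 of 9 between Treatment and Control (2.37% of all genes) and 2 of 9 between Model and Control (3.72% of all genes). Libraries did not overlap in CPM for 3 of 9 genes between Treatment and Model (Egr2 and Nr4a1 higher, Nr4a3 lower), against 9.50% of all genes. The same held for 2 of 9 between Treatment and Control (Egr3 and Nr4a1 higher), against 7.24% of all genes, and for 3 of 9 between Model and Control (Egr3 and Nr4a3 higher, Npas4 lower), against 11.4% of all genes. The median log2 difference of the 9 genes was 0.18 in Treatment against Model, 0.27 in Treatment against Control and 0.03 in Model against Control, beside 0.00184, -0.00759 and -0.0117 over all genes.

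**Figure D3:**
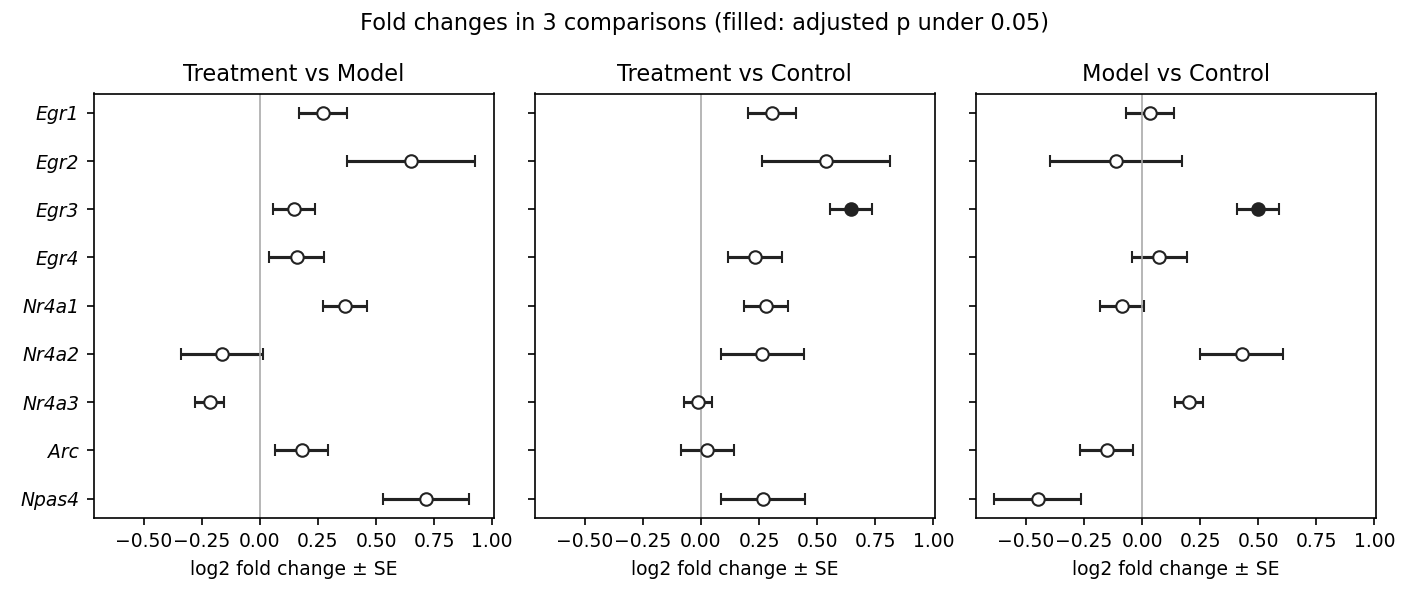
Log2 fold change with SE (edgeR, n = 4 per group) of the 9 genes in Treatment against Model, Treatment against Control and Model against Control; filled points have an adjusted p under 0.05. Egr3 is the filled point at 0.64 and 0.50 in the middle and right panels, no point is filled in the left panel, and Nr4a2 and Nr4a3 are the members below 0 in Treatment against Model.

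The mean score of the 9 genes, with each gene scaled to mean 0 and SD 1 over the libraries, was 0.68, 0.52, 0.39 and 0.65 in Treatment, -0.57, -0.44, -0.28 and 0.67 in Model and -0.33, -0.59, -0.36 and -0.34 in Control. Every Treatment library was above 0 and every Control library below it. Model replicate 4 stood with the Treatment libraries, apart from the other Model libraries, and was the highest Model library for 5 of the 9 genes. The summed neocortical markers of that library, 481 CPM, were the highest of Model but under the lowest Treatment library. Within Treatment, replicate 3 had the lowest score and the lowest sum of neocortical markers (503 CPM), and replicate 1 the highest score and the highest sum (624 CPM). Within Model, replicate 1 had the lowest score with the sum next below the highest (471 CPM), and within Control, replicate 2 had the lowest score and the highest sum (484 CPM). The neocortical sums of Treatment overlapped those of neither other group. A fit with the neocortical score therefore cannot tell that score and the group apart in comparisons with Treatment. With the neocortical score in the edgeR model, Treatment over Model was 0.41 log2 units for Npas4 (adjusted p = 0.857), 0.39 for Nr4a1 (adjusted p = 0.763), 0.09 for Egr1 (adjusted p = 0.961) and -0.12 for Nr4a3 (adjusted p = 0.870). The same model gave 0.42 for Egr2, 0.33 for Egr4, 0.45 for Arc and -0.54 for Nr4a2 in Treatment over Model, with edgeR adjusted p-values of 0.759 to 0.912. In Treatment over Control it gave 0.12 for Egr1 and -0.06 for Npas4, with edgeR adjusted p-values of 0.965 and 0.989. With the choroid plexus score, Model over Control was 0.08 for Nr4a2 (adjusted p = 0.941, edgeR) and -0.62 for Npas4 (adjusted p = 0.435, edgeR). In that comparison too, the choroid plexus score and the group are hard to tell apart.

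**Figure D4:**
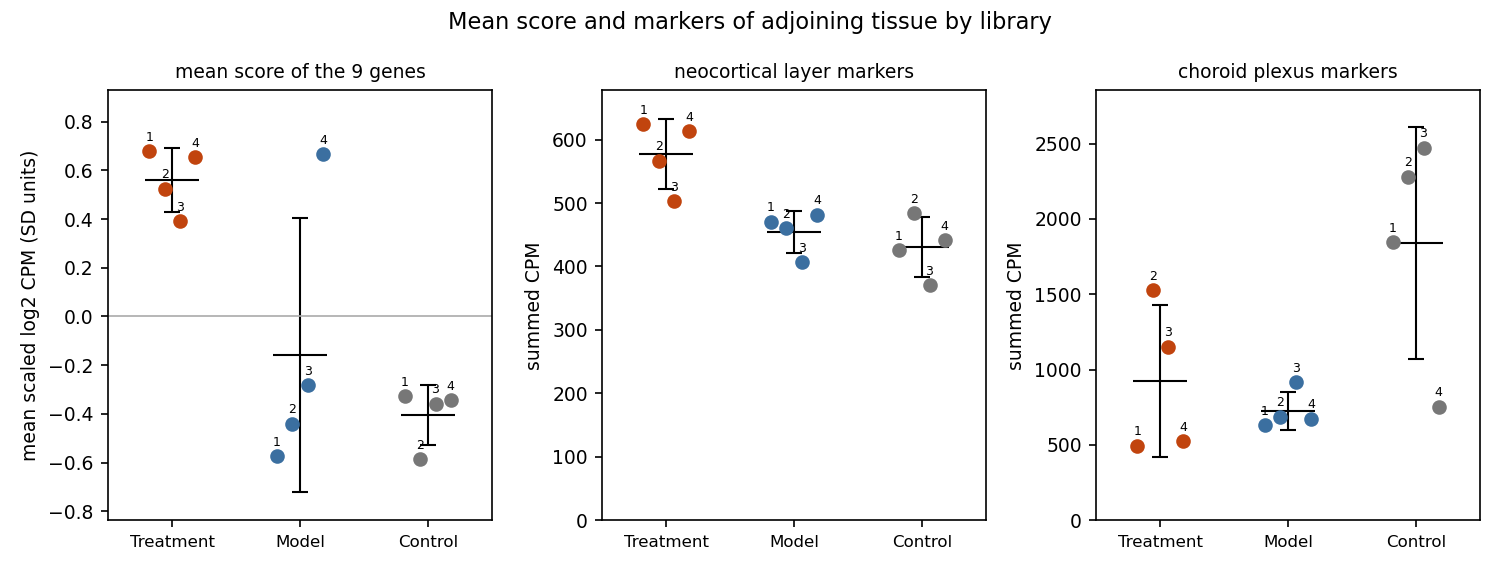
Mean score of the 9 genes (mean scaled log2 CPM, SD units), summed CPM of neocortical markers and summed CPM of choroid plexus markers in the Treatment, Model and Control libraries; numbers are replicates, bars are means and whiskers SD (n = 4). Treatment scores run from 0.39 to 0.68 beside neocortical sums of 503 to 624 CPM, Model replicate 4 stands apart at 0.67, and Control replicate 4 has the lowest choroid plexus sum of its group at 754 CPM.

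Across the 12 libraries the members did not vary as 1 block. Of their 36 pairs, 27 had a positive Pearson r of log2 CPM and the median r was 0.23. By r, 0 pairs passed after adjustment over the 36 (permutation test, 100000 resamples, 5 with an unadjusted p under 0.05), and by Spearman's rank correlation 2 passed. Egr1 and Nr4a1 had r = 0.79 (permutation p = 0.00271, adjusted 0.0524) and a Spearman correlation of 0.85 (permutation p = 0.00085, adjusted 0.0227), r = 0.77 without the 2 libraries farthest from the median of Egr1, and r = 0.64 for deviations from the group means (permutation p = 0.0412, adjusted 0.297). Nr4a3 and Npas4 varied in opposite ways, with r = -0.78 (permutation p = 0.00291, adjusted 0.0524) and a Spearman correlation of -0.83 (permutation p = 0.00126, adjusted 0.0227), r = -0.68 without 2 libraries and r = -0.52 within groups (permutation p = 0.0172, adjusted 0.206). Within groups 1 pair passed, Egr4 and Nr4a3 at r = 0.62 (adjusted permutation p = 0.0068), whose r over all libraries was 0.18.

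Ratios of family members within a library do not depend on library scaling. They were formed after the values had been seen, for 6 ratios in 3 comparisons. Egr3 over Egr1 was 1.30 to 1.68 in Treatment, 1.37 to 1.78 in Model and 1.08 to 1.28 in Control, so that both stressed groups lay above Control without overlap. Egr3 over Egr4 was 6.54 to 10.8 in Treatment, 7.18 to 8.98 in Model and 5.85 to 6.22 in Control, with the same separation. Nr4a3 over Nr4a1 was 1.32 to 1.52 in Treatment, against 1.75 to 2.39 in Model. In each of these 5 cases the two-sided exact permutation p was 0.0286, the smallest that 4 against 4 libraries can give, and after adjustment over the 18 tests it was 0.103, so 0 of 18 passed. From FPKM 0 of 18 passed too, and Nr4a3 over Nr4a1 then overlapped, at 0.575 to 0.660 in Treatment against 0.644 to 1.06 in Model (exact permutation p = 0.0571).

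**Figure D5:**
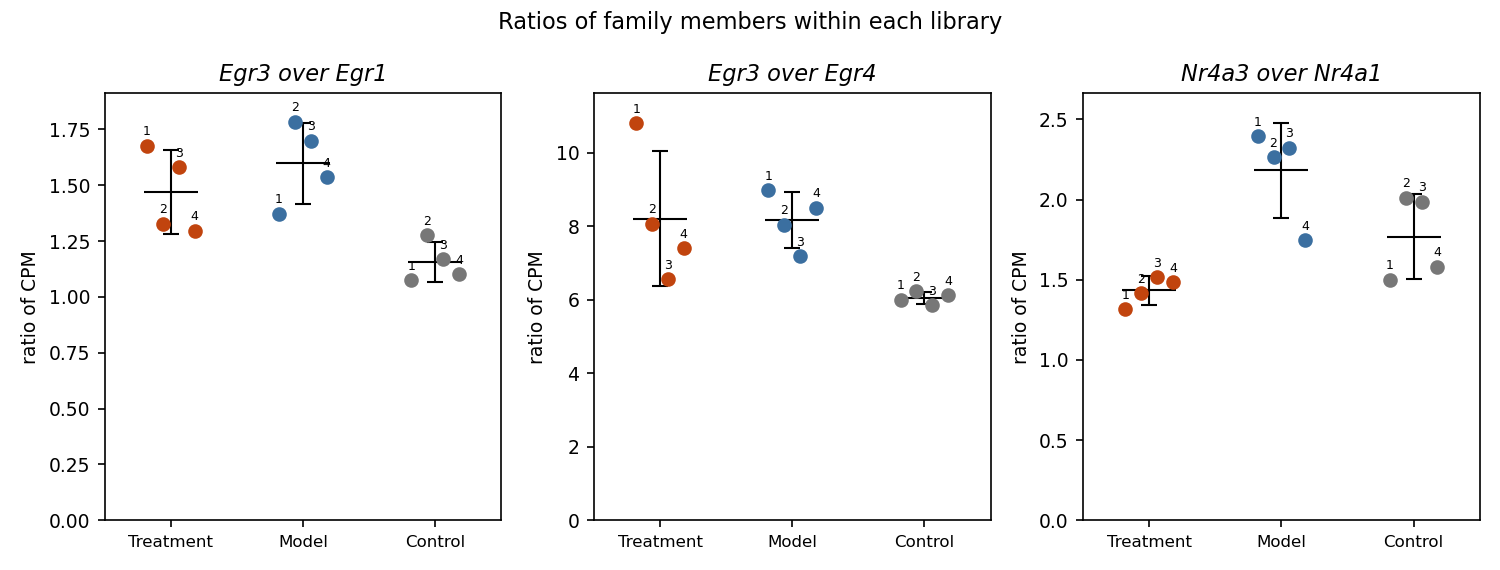
Ratio of CPM within each library for Egr3 over Egr1, Egr3 over Egr4 and Nr4a3 over Nr4a1 (axes from 0) in Treatment, Model and Control; numbers are replicates, bars are means and whiskers SD (n = 4). The Egr3 ratios of all Treatment and Model libraries lie above Control, and Nr4a3 over Nr4a1 runs from 1.32 to 1.52 in Treatment and from 1.75 to 2.39 in Model.

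Other genes of the activity programme were counted from lists of known members. Of 9 AP-1 factors, dimeric transcription factors of the same early wave, 1 was higher in Treatment than in Model, 2 were higher in Treatment than in Control and 1 was higher in Model than in Control, and 0 were lower. Over all genes the shares called in either direction were 1.88% in Treatment against Model, 0.102% in Treatment against Control and 0.790% in Model against Control. Fosb had 9.95, 10.85, 8.53 and 8.96 CPM in Treatment, 8.81, 10.96, 9.32 and 10.34 CPM in Model and 4.18, 5.90, 5.82 and 5.68 CPM in Control. Like Egr3 it lay above Control in all libraries of stressed mice, by 0.82 ± 0.13 log2 units in Treatment (adjusted p = 0.0272, edgeR) and 0.87 ± 0.13 in Model (adjusted p = 0.0111, edgeR). Jund had 158 to 190 CPM in Treatment, 128 to 145 CPM in Model and 130 to 141 CPM in Control, and was 0.36 ± 0.06 higher in Treatment than in Model (adjusted p = 0.0179, edgeR) and 0.35 ± 0.06 higher than in Control (adjusted p = 0.0499, edgeR). The median of the list was -0.04 in Treatment against Model, 0.10 in Treatment against Control and 0.15 in Model against Control.

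Of 32 other rapidly induced genes, Per1, a core gene of the circadian clock, was the single edgeR call, with 0.39 ± 0.09 log2 units in Treatment against Model (adjusted p = 0.0399, edgeR). It had 62.2 to 88.1 CPM in Treatment, 55.0 to 57.8 CPM in Model and 61.7 to 72.4 CPM in Control. Between Treatment and Model 1.88% of all genes passed, so 1 call among 32 genes is near that share. There 4 of the 32 had an unadjusted p under 0.05, as had 18.5% of all genes. DESeq2 called 1 of them, against 5.91% of all genes. Against Control, edgeR called 0 of the 32 in Treatment and 0 in Model, where 4 in Treatment and 6 in Model had an unadjusted p under 0.05, as had 13.9% and 15.6% of all genes, and DESeq2 called 1 in each. The list's median was 0.08 in Treatment against Model, 0.09 in Treatment against Control and -0.04 in Model against Control. Of 14 effectors that follow the early wave, 3 were higher in Model than in Control (0.790% of all genes called), 1 was higher in Treatment than in Control (0.102%) and 0 passed between Treatment and Model (1.88%), by edgeR (2 with an unadjusted p under 0.05 and 2 by DESeq2), where the list's median was -0.07. Homer1, whose short form loosens glutamate receptor scaffolds, was 0.69 ± 0.14 higher in Model (144 against 89.4 CPM, adjusted p = 0.0316, edgeR). Inhba, which encodes a subunit of activin, was 0.83 ± 0.17 higher in Model (12.3 against 6.94 CPM, adjusted p = 0.0357, edgeR). Syt4, a synaptotagmin of secretory vesicles, was 0.32 ± 0.06 higher in Model (164 against 132 CPM, adjusted p = 0.0295, edgeR). Nptx2, a secreted protein that clusters AMPA receptors, was 0.77 ± 0.14 higher in Treatment than in Control (32.3 against 19.0 CPM, adjusted p = 0.0499, edgeR). The group means of these genes were also above Control in the other stressed group, without passing. Libraries overlapped there for Syt4, with a lowest Treatment library of 136 CPM and a highest Control library of 141 CPM. They also overlapped for Nptx2, with a lowest Model library of 19.6 CPM and a highest Control library of 21.8 CPM. For Homer1 and Inhba the Treatment libraries did not overlap Control. In Treatment the differences were 0.55 ± 0.14 for Homer1 (131 CPM), 0.65 ± 0.17 for Inhba (10.9 CPM) and 0.19 ± 0.06 for Syt4 (151 CPM). Their edgeR adjusted p-values were 0.109, 0.125 and 0.173. In Model the difference was 0.54 ± 0.14 for Nptx2 (27.6 CPM, adjusted p = 0.0772, edgeR). The median of the effectors was 0.19 in Treatment against Control and 0.20 in Model against Control.

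Upstream of the members, 0 of 17 kinases and transcription factors passed in any comparison by edgeR, where 3 to 5 per comparison had an unadjusted p under 0.05, as had 13.9% to 18.5% of all genes, and DESeq2 called 1 in Treatment against Model, 0 in Treatment against Control and 1 in Model against Control. The list's median was -0.06 in Treatment against Model, 0.05 in Treatment against Control and 0.07 in Model against Control. The smallest p in Model against Control belonged to Elk1, a partner of SRF, at 0.30 ± 0.07 log2 units (109 CPM in Model, 88.2 CPM in Control, adjusted p = 0.0568, edgeR), and to Creb1, at 0.19 ± 0.07 (66.1 CPM in Model, 58.0 CPM in Control, adjusted p = 0.182, edgeR). Of 13 protein partners of the members 0 passed by edgeR, where 2 per comparison had an unadjusted p under 0.05, again beside 13.9% to 18.5% of all genes, and DESeq2 called 1 in Treatment against Model, 1 in Treatment against Control and 0 in Model against Control. Their median was -0.01 in Treatment against Model, 0.08 in Treatment against Control and 0.04 in Model against Control. Rnf216, a ubiquitin ligase that acts on Arc, differed by 0.16 ± 0.06 and Rxra, which pairs with Nr4a1 and Nr4a2, by 0.17 ± 0.08 in Model against Control, with edgeR adjusted p-values of 0.230 and 0.283.

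Among 13668 genes with a mean of at least 1 CPM, the 8 whose log2 CPM was most like the mean score over the 12 libraries were Syk at r = 0.93, Metrnl at 0.90, Adrb1 at 0.89, and Bbln, Vgf, Nat8l, Ngef and Cav2 at 0.88. Adrb1 encodes a noradrenaline receptor and Vgf a secreted precursor of neuropeptides. Of these 8, Ngef passed in Treatment against Model, at 115 CPM in Treatment and 88.3 CPM in Model (0.38 ± 0.09 log2 units, adjusted p = 0.0425, edgeR), where 1.88% of all genes passed. The 8 were chosen for likeness to a score that was above 0 in every Treatment library and below 0 in most Model libraries. That call is therefore no independent test. For single members the most alike gene was Rhobtb2 for Egr1 (r = 0.86), Prss53 for Egr2 (0.92), Foxk2 for Egr3 (0.95), Hnrnpa0 for Egr4 (0.89), Nat8f3 for Nr4a1 (0.92), Uchl5 for Nr4a2 (0.96), Sec22c for Nr4a3 (0.95), Ddah1 for Arc (0.86) and Snhg11 for Npas4 (0.94). These r values are the highest of 13668 over the same 12 libraries and are given as a description.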

How the data were processed

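The submitters' processing notes name STAR 2.7.10a, Salmon 1.10.1, FastQC 0.12.1, cutadapt 3.4 and Trim Galore 0.6.7, and as builds mm39 and GRCm39. Their roles, annotation release, filters and read strand are not given in the sources used here. The deposited table gives each library unscaled estimated counts, of which 28.8% of those above 0 are not whole within 1e-06. It also gives FPKM, scaled by the authors for length and library total. Groups came from the sample titles. The 9 members were matched by symbol.

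Counts were rounded, filtered with filterByExpr and scaled by TMM, and 1 edgeR 4.0.16 quasi-likelihood model (R 4.3.3) was fitted to all 12 libraries, with 1 mean for each group. P-values were adjusted by Benjamini-Hochberg over all 18600 genes, with a threshold of 0.05. CPM uses scaled library sizes, and log2 CPM a prior count of 2. Library totals of 17083260 to 27479083 counts set the precision, and the procedure was tested on simulated data. There the share of changed genes recovered first fell short of the level required, which was then asked only of genes of at least 1 CPM. Alternatives used DESeq2 1.42.0 and limma 3.58.1. Permutation tests ran in Python 3.11.15, and figures used matplotlib 3.10.9.

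The members and gene lists were chosen with earlier results of these data known. All members are named. From each list every gene that passed in any comparison is named, or, with none, the 2 of smallest p in Model against Control; by likeness, 8 genes for the score and 1 for each member. Reads were not realigned.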

Additional observations from a re-analysis of the deposited data

Results flagged for a closer look

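In the 27 groups of 4 libraries formed by the 9 genes, 2 libraries stood far from the other 3 of their group, and chance gives about 1 in 20 groups. Arc in Treatment replicate 4 was at 54.3 CPM, where the other Treatment libraries had 69.2 to 71.6 CPM, and this gap was 0.865 of the range of the group. Npas4 in Control replicate 4 was at 12.3 CPM, where the other Control libraries had 10.5 to 10.7 CPM, and this gap was 0.895 of the range. Without Control replicate 4 the Npas4 difference between Model and Control was -0.39 log2 units (adjusted p = 0.429, edgeR).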

How the results depend on the processing

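Egr3 kept its direction under all 23 alternatives in each comparison, at 0.41 to 0.58 log2 units in Model against Control and 0.57 to 0.75 in Treatment against Control, and it passed in 15 and 19 of them. The sign changed in at least 1 alternative for Egr1 and Egr2 in Model against Control, Nr4a2 in Treatment against Model, and Nr4a2, Nr4a3, Arc and Npas4 in Treatment against Control, none of which had passed. Of the 9 genes, 1 passed between Model and Control, but 2 with DESeq2, 3 without a count filter and 0 with FPKM (either pseudocount) or with the choroid plexus score; leaving out each library gave 0 to 1. Between Treatment and Model 0 passed, but 3 with DESeq2, 3 without a filter, 2 with at least 1 CPM in 8 libraries and 0 to 1 without each library. Between Treatment and Control 1 passed, but 4 without a filter, 0 with the neocortical or choroid plexus score and 0 to 1 without each library. Over all genes, 147 passed between Model and Control, but 692 with DESeq2, 783 without a filter, 452 from only the 8 libraries compared, 284 without both Treatment replicates 2 and 3 (library numbers 1631 and 1636, distant from the rest), 5 with FPKM at either pseudocount, 3 with the choroid plexus score and 8 to 273 without each library, with 8 reached without Control replicate 1 or Control replicate 2. Between Treatment and Model 350 passed, but 1099 with DESeq2, 1090 without a filter, 137 from 8 libraries, 132 without both Treatment replicates 2 and 3, 111 and 114 with FPKM (pseudocounts 1 and 0.1), 0 with the neocortical score and 0 to 459 without each library, with 0 reached without Model replicate 2 or Model replicate 3. Between Treatment and Control 19 passed, but 12 with RLE scaling, 440 with DESeq2, 748 without a filter, 2 from 8 libraries, 130 without both Treatment replicates 2 and 3, 9 with FPKM (pseudocount 1), 0 with either score and 0 to 73 without each library, with 0 reached without Control replicate 1. Pairs of members that passed by r were 0, but 1 for deviations from the group means and 0 to 2 without each library. The cause of these changes was not tested.

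The labels do not say that replicate numbers pair the libraries. Deviations of same-numbered libraries correlated at -0.04 to 0.16 in 12 pairs, 2 of them over 0.1, and 5 of 12 libraries were closest to their own number. These values were not set against a chance level and cannot decide whether libraries were paired. With the replicate block 228 genes passed between Model and Control and 118 between Treatment and Control, and 2 members passed between Treatment and Model, Nr4a1 (adjusted p = 0.0475, edgeR) and Npas4 (adjusted p = 0.0333, edgeR). Egr2, at 12 to 26 counts per library, is limited by depth.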
